A study of Mus musculus with 8 samples.

Results

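The miR-297, miR-466, miR-467 and miR-669 families are mouse microRNAs of closely repeated sequence, most of them encoded side by side in the Sfmbt2 gene. Their members were taken here as every assay of the deposited mouse tables with a mouse (mmu) name in 1 of these 4 families, without the passenger-strand assays marked #. This gave 29 of 750 distinct miRNA assays. The families had 2 miR-297, 8 miR-466, 9 miR-467 and 10 miR-669 assays, and no assay among them was present in more than 1 row.

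Cells with the surface phenotype CD34+/CD105- were sorted from collagenase-digested renal arteries of 8 mice, and their miRNAs were quantified by real-time PCR. Sham surgery was done in 4 mice, and in the other 4 both renal arteries were clamped and then reperfused (ischemia/reperfusion). CD34 marks endothelial and progenitor cells, and CD105 (endoglin) marks endothelial and mesenchymal stromal cells. Strain, age, clamping time and reperfusion time were not given in the labels. The design contrasts the miRNA levels of injured and sham-operated mice. The readout is the threshold cycle (Ct), the PCR cycle at which the signal crosses a threshold, so that a lower Ct means more RNA. A miRNA counted as detected in a mouse below Ct 35. Delta Ct is the Ct minus a reference Ct of the same mouse and card, and minus delta Ct is a level on the log2 scale if PCR is fully efficient.

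In rodents, the Sfmbt2 cluster lies in an intron of a Polycomb-group gene that is imprinted and expressed from the paternal allele in extraembryonic tissue. The cluster arose by repeated duplication and is best known from placenta and embryonic stem cells. A miRNA recognises its targets mainly through its seed, bases 2 to 8 of the mature strand, so copies that differ in the seed can differ in their targets.

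The RefSeq table of GRCm38.p6 places 71 miRNA genes inside Sfmbt2 on chromosome 2, and all 71 belong to these 4 families, with 5 Mir297, 23 Mir466, 14 Mir467 and 29 Mir669 genes. By name, 28 of the 29 assays matched a gene, and 23 of them matched only genes inside Sfmbt2. The assay name miR-466a-3p had no match. For 5 assays the matching gene lay elsewhere, namely miR-466j on chromosome 10, miR-466k and miR-669n on chromosome 3, miR-467f on chromosome 11 and miR-467h on chromosome 9. These 5 are members by family name and not by position. Another 5 assays matched more than 1 gene: both miR-467a assays matched 10 genes, the miR-669a assay matched 12, and the miR-669d and miR-669m assays matched 2 each. A Ct of such an assay cannot be assigned to 1 copy.

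Mature sequences for 5 of the 29 members, the same 5 that are encoded outside Sfmbt2, were taken from RefSeq (GRCm38.p6). They are shown with the seed in capitals, for the repeat structure of these 5 members. None of the 5 assays gave a Ct in any mouse.
miR-466k: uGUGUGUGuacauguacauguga
miR-466j: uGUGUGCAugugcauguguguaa
miR-669n: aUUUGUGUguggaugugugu
miR-467h: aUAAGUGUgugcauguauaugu
miR-467f: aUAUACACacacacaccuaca
The 5 seeds were all different, and of the other mature miRNAs in the table only miR-668-5p shared 1 of them, that of miR-467h. No other member was matched by name to a mature sequence, so seeds shared with those members could not be seen. miR-466k lies at chr3:85467396-85467418 (+), miR-466j at chr10:60960802-60960824 (+), miR-669n at chr3:115979905-115979924 (+), miR-467h at chr9:115381898-115381919 (+) and miR-467f at chr11:69635419-69635439 (-). In these sequences UG, GU, CA or AC made up 52.4% to 77.3% of neighbouring base pairs, against a median of 28.6% over 1679 mature miRNAs of the table. Each of the 5 had a higher share than at least 98.1% of them. miR-467f carries the CA-rich form and the other 4 the UG-rich form of the repeat.

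The repeat runs past the mature strand. The 122-base hairpin of Mir466k, at chr3:85467377-85467498 (+), is shown with the mature strand in capitals, at bases 20 to 42.
Mir466k hairpin: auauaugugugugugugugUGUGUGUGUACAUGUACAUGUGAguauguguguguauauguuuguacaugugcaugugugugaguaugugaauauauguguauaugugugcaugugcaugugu
Its longest unbroken UG run was 22 bases, and G and U made up 75.4% of its bases.

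In these sorted cells nearly all members gave no signal. Of the 29 assays, 27 had no Ct in any of the 8 mice, and 2, both of the miR-467 family, were detected in at least 1 mouse. No miR-297, miR-466 or miR-669 assay was detected. Of 232 wells, 9 had a Ct and 8 were below Ct 35. Of the other 721 miRNA assays, 185 (25.7%) were detected in at least 1 mouse, beside 6.90% of the members.

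The assays were divided here into 2 sets by their catalogue numbers, called the first and the second card. Each set had its own reference Ct in each mouse. On the first card 1 of 9 members was detected in at least 1 mouse, beside 133 of 366 other assays (36.3%). On the second card 1 of 20 members was detected, beside 52 of 355 other assays (14.6%). The members lie mostly on the second card, where fewer assays of any kind were detected, and their share was the lower on both cards. These shares are a description, since the members were chosen with earlier results of these data known.

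The members with no Ct in any mouse included both miR-297 assays, miR-297b-5p and miR-297c. All 8 miR-466 assays were without a Ct, namely miR-466a-3p, miR-466b-3-3p, miR-466d-5p, miR-466e-5p, miR-466g, miR-466h, miR-466j and miR-466k. So were all 10 miR-669 assays, miR-669a, miR-669c, miR-669d, miR-669e, miR-669g, miR-669h-5p, miR-669l, miR-669m, miR-669n and miR-669o. The miR-669a assay had no Ct in any mouse, although 12 genes inside Sfmbt2 carry its name. Of the miR-467 family, miR-467c, miR-467d, miR-467e, miR-467f and miR-467h had no Ct.

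**Figure D1:**
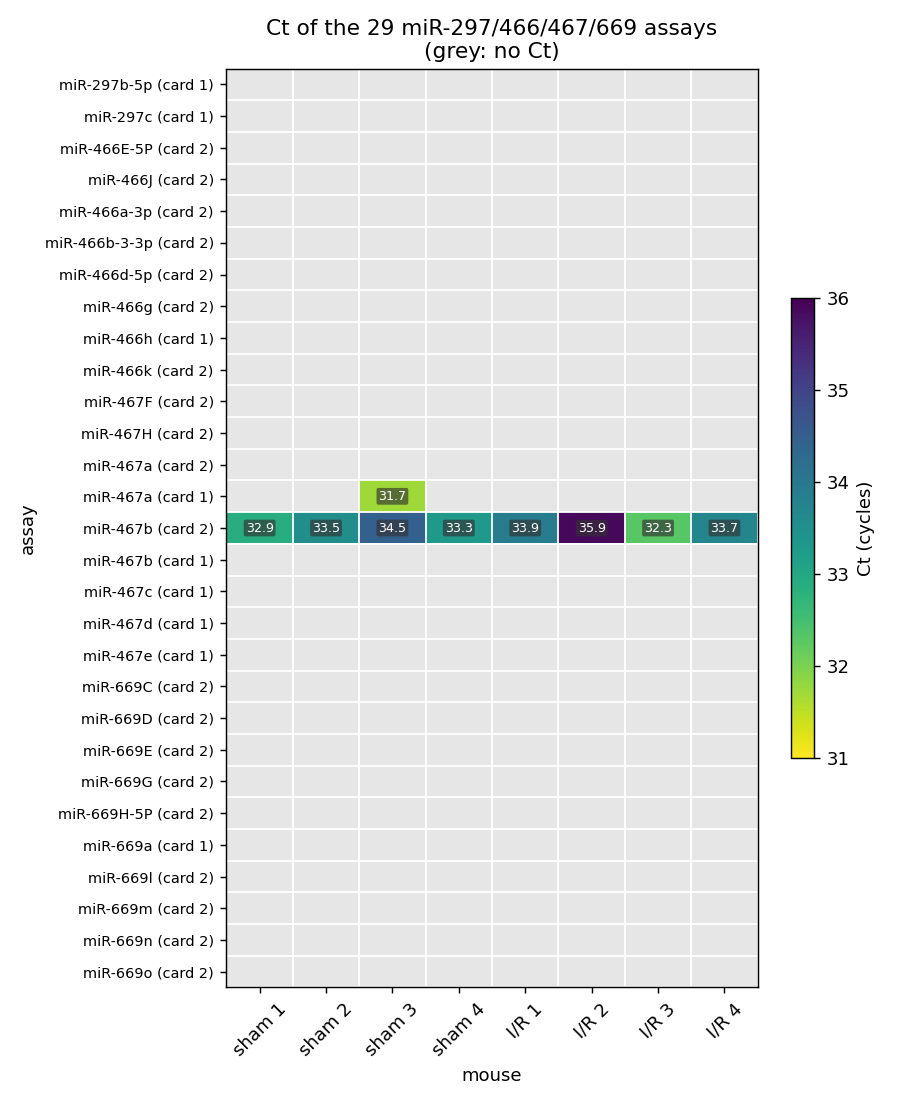
Ct in cycles (colour and number) of the 29 assays (rows, with the card of each) in 4 sham and 4 ischemia/reperfusion (I/R) mice (columns); grey cells have no Ct. Of 232 cells, 9 hold a Ct, 8 of them in the row of the second-card miR-467b assay.

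How far non-detection reaches differs between mice, because the reference Ct differed. On the second card, Ct 35 lay at a delta Ct of 11.97 in sham mouse 2 and 16.2 in sham mouse 4, with the ischemia/reperfusion mice between 12.4 and 13.53. On the first card it lay between 12.6 in sham mouse 2 and 17.1 in sham mouse 4. The reach was therefore widest in sham mice 3 and 4, and the undetected members had no Ct there either. In bulk samples such as these, fewer cells of a type and less RNA per cell cannot be told apart.

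The sorted cells gave markers of endothelium and of other cells. Both arms of the endothelial miR-126 were detected in all 8 mice, at a median Ct of 26.2 for miR-126-3p and 27.9 for miR-126-5p. The leukocyte miRNAs miR-150 and miR-223 were likewise detected in all 8 mice, at a median Ct of 27.6 for miR-150 and of 30.5 and 31.5 for 2 miR-223 assays. So was miR-145 of smooth muscle, at a median Ct of 32.7. Of the other leukocyte miRNAs, miR-142-3p was detected in 1 sham and 2 ischemia/reperfusion mice, and miR-142-5p had no Ct in any mouse. The erythroid miR-144 and miR-451 and the epithelial miR-200a, miR-200b and miR-200c had no Ct in any mouse. Of the 18 marker assays chosen for other cells, 3 of 3 smooth muscle, 4 of 5 leukocyte, 3 of 8 kidney tubule and epithelial and 0 of 2 erythroid assays were detected in at least 1 mouse.

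Some of these markers were seen in sham mice 3 and 4 and in no ischemia/reperfusion mouse, and others were seen in both groups. For miR-194, a miRNA of kidney and gut epithelium, sham mouse 3 had a Ct of 20.5 and sham mouse 4 a Ct of 23.7, with no Ct in the other 6 mice. The first-card assay of miR-143, a smooth muscle miRNA, had a Ct of 33.5 and 29.6 in the same mice and none elsewhere. The second-card miR-143 assay had a Ct in every mouse, below 35 in sham mice 1 and 4 and in ischemia/reperfusion mouse 4. miR-192, another kidney and gut epithelial miRNA, had a Ct of 29.8 in sham mouse 4 only. By contrast, miR-204 of the kidney list was detected in 3 sham and 2 ischemia/reperfusion mice. Its Ct was 27.2 in both sham mouse 4 and ischemia/reperfusion mouse 2. Per mouse, 4 to 10 of the 18 assays were detected in sham and 5 to 6 after ischemia/reperfusion. Their summed level, 2 to the power of minus delta Ct, was 0.0222 to 0.365 in sham, highest in sham mouse 3, and 0.00256 to 0.0957 after ischemia/reperfusion. In sham mouse 3 the kidney tubule and epithelial assays, miR-194 among them, had a summed level of 0.361, nearly all of that mouse's total of 0.365. The other sham mice had 0.0222 to 0.0383, below ischemia/reperfusion mouse 2 at 0.0957. Detected miRNA assays numbered 75 to 163 in sham and 82 to 98 in ischemia/reperfusion mice.

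miR-467b, encoded by a single gene inside Sfmbt2, was the member seen in most mice. Its second-card assay had a Ct in all 8 mice, and 7 were below 35. Sham mice 1 to 4 had a Ct of 32.9, 33.5, 34.5 and 33.3. The Ct of ischemia/reperfusion mice 1 to 4 was 33.9, 35.9, 32.3 and 33.7. All mice of the sham group were within the limit, ischemia/reperfusion mouse 2 was past it, and the values of the groups overlapped, with both the lowest and the highest Ct in the ischemia/reperfusion group. The mean Ct was 33.5 ± 0.673 (SD, n = 4) in sham and 33.9 ± 1.48 (SD, n = 4) after ischemia/reperfusion.

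This was a late signal. Of the 71 miRNA assays with a Ct in all 8 mice, 6 had a higher mean Ct than miR-467b, at 33.7 over all mice, and the median was 28.6. Its Ct also varied little, over 3.59 cycles, and 13 of the 71 assays had a smaller range, beside a median of 5.48 cycles. Among the other 11 assays with a mean Ct of at least 32, the range was 2.09 to 9.74 cycles, and 3 had a smaller range than miR-467b. Ct values of different assays depend on each assay's efficiency, so their order is not an order of RNA amounts.

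**Figure D2:**
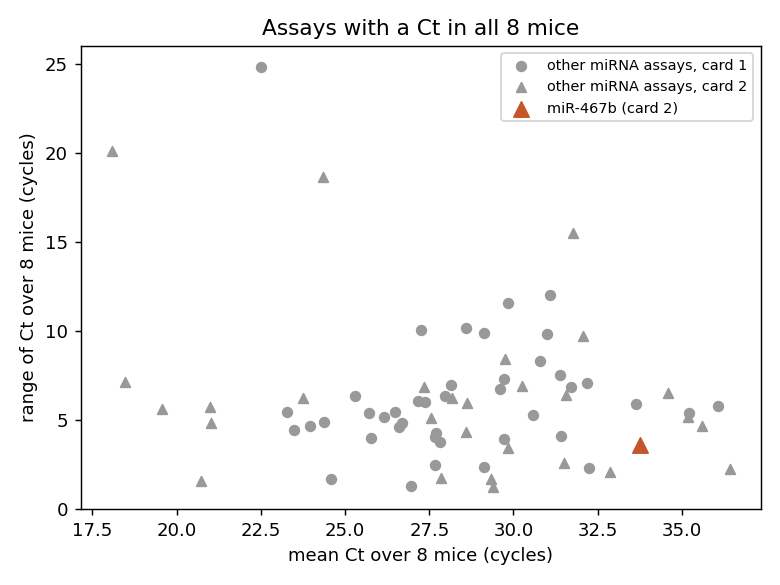
Mean Ct (x axis, cycles) against the range of Ct over the 8 mice (y axis, cycles) for the 71 miRNA assays with a Ct in every mouse; circles are first-card and triangles second-card assays. miR-467b (orange) sits at a mean of 33.7 and a range of 3.59 cycles.

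The Ct of miR-467b followed the reference little. Pearson's r of its Ct with the reference Ct of the same card was 0.22 and Spearman's rho 0.19 over the 8 mice, and r was 0.27 without the 2 mice whose reference lay farthest from the median. Over the 71 assays the median r with the reference was 0.79, and 12 had a lower r than miR-467b. Among the other 11 assays with a mean Ct of at least 32, the median r was lower, at 0.54. These correlations are a description over 8 mice, whose wells share a card and a reference.

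After subtraction of the reference the mice of the sham group spread more widely than in Ct. Over all 8 mice the delta Ct of miR-467b ranged over 3.98 cycles. Of the 71 assays with a Ct in all 8 mice, 34 had a smaller range, beside a median of 4.08 cycles. The delta Ct of miR-467b was 11.4, 10.5, 14.3 and 14.5 for sham mice 1 to 4. For ischemia/reperfusion mice 1 to 4 it was 12.4, 13.3, 10.7 and 11.8. Sham mice 3 and 4, with the highest delta Ct and so the lowest relative level, had the lowest reference Ct, at 20.2 and 18.8. The reference Ct was 21.5 and 23.0 in sham mice 1 and 2, and 21.5, 22.6, 21.6 and 21.9 in ischemia/reperfusion mice 1 to 4. All 4 ischemia/reperfusion values of delta Ct lay within the sham range. Ischemia/reperfusion mouse 2, past Ct 35, had a lower delta Ct than sham mice 3 and 4, which were counted as detected. In 6 of the 8 mice, the delta Ct of sham mouse 3 would have been past the limit of Ct 35.

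**Figure D3:**
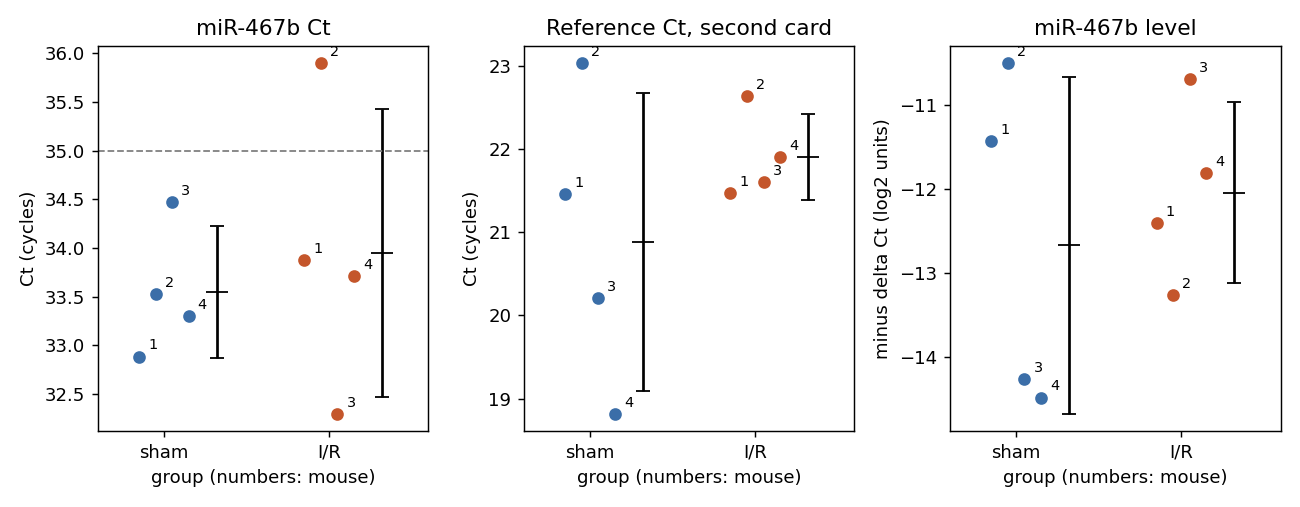
Ct of miR-467b (left), reference Ct of the second card (middle), both in cycles, and minus delta Ct of miR-467b (right, log2 units) in each mouse, numbered, by group, with the mean and SD (n = 4 per group) as black bars; the dashed line is Ct 35. The Ct values overlap between groups, and sham mice 3 and 4 have both the lowest reference Ct and the lowest minus delta Ct.

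miR-467b was the only member that met the filter for testing, a Ct below 35 in at least 3 mice of each group. It did not pass the threshold, an adjusted p of 0.05, beside 0 of all 72 tested miRNAs (0.0%). From 4 sham and 3 ischemia/reperfusion values, with ischemia/reperfusion mouse 2 left out at Ct 35.9, the mean delta Ct was 12.7 ± 2.01 (SD, n = 4) in sham and 11.6 ± 0.871 (SD, n = 3) after ischemia/reperfusion. The log2 difference, ischemia/reperfusion minus sham on the minus delta Ct scale, was 1.03 ± 1.14 (SE), with a 95% interval of -1.62 to 3.68, by limma (unadjusted p = 0.393, adjusted p = 0.626). As a fold this is 2.05, with an interval of 0.326 to 12.8, so neither a higher nor a lower level after ischemia/reperfusion can be told from these mice. An exact two-sided permutation test over 35 assignments gave p = 0.514, where the smallest p it allows is 0.0571. The fold in the authors' deposited table is 1.54, which is the value with ischemia/reperfusion mouse 2 kept.

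By limma, 0 of the 72 miRNAs passed after adjustment, with 10 at an unadjusted p under 0.05. The exact test per miRNA gave 0, with 2 at an unadjusted p under 0.05. miR-467b was 43rd in order of p and had the 9th highest difference. Over these 72 miRNAs the median log2 difference was -0.80, and 23 had a positive difference, miR-467b among them.

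The size of the miR-467b difference depended on the reference. It was 1.90 ± 0.98 (SE) with the average Ct of the 54 miRNAs detected in every mouse as reference and 0.25 ± 0.83 (SE) without normalization. With ischemia/reperfusion mouse 2 kept (Ct below 38), it was 0.63 ± 1.07 (SE) against the deposited reference and turned to -0.40 ± 0.92 (SE) without normalization. Without sham mouse 3 it was 0.50, without sham mouse 4 it was 0.43 and without sham mouse 2 it was 1.75. Without both sham mice 3 and 4, an alternative chosen after seeing the data that needs only 2 mice of each group, it turned to -0.67 ± 0.90 (SE), so its positive sign rested on those mice. They are the mice with miR-194 and first-card miR-143, and the part of these other cells' markers in the difference was not tested. With the filter lowered to 2 mice of each group, it was 0.56 without ischemia/reperfusion mouse 3.

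**Figure D4:**
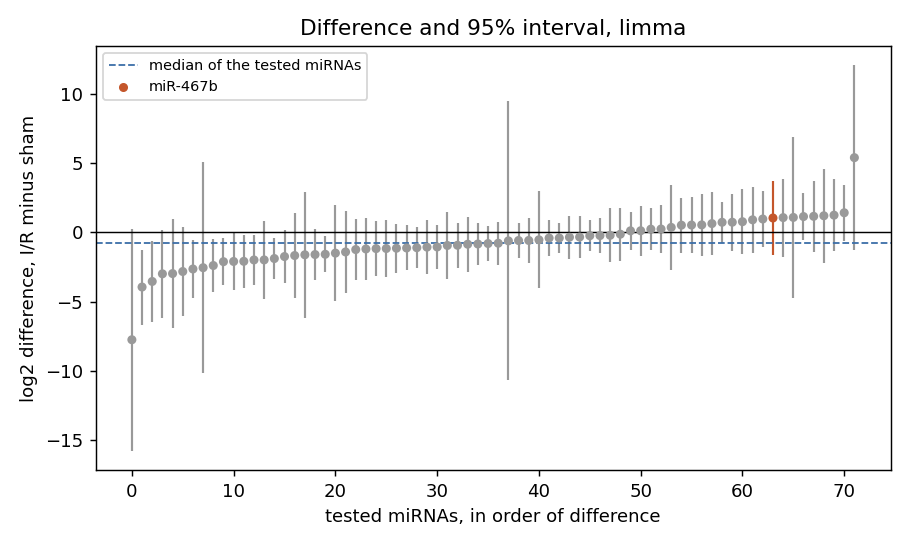
Log2 difference, ischemia/reperfusion (I/R) minus sham, with its 95% interval (y axis) for the 72 tested miRNAs in order of difference (x axis); miR-467b is orange, and the dashed line is the median, -0.80. The interval of miR-467b, -1.62 to 3.68, includes both 0 and the median.

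The non-member miRNAs whose minus delta Ct over the 8 mice was most like that of miR-467b, among 54 detected in every mouse, were miR-673, the passenger strand miR-29b# and miR-378. Pearson's r was 0.93 for miR-673, 0.75 for miR-29b# and 0.73 for miR-378, and Spearman's rho was 0.88, 0.64 and 0.62. Without sham mice 3 and 4, the mice farthest from the median of miR-467b, r was 0.83, 0.22 and 0.04, so the likeness of miR-29b# and miR-378 rests on those mice. On the Ct scale, without the shared reference, r was 0.61, 0.34 and 0.21. The delta Ct of miR-673 was -6.47, -7.15, 0.75 and 3.29 for sham mice 1 to 4. It was -0.55, -0.92, -5.76 and -6.63 for ischemia/reperfusion mice 1 to 4, a wider spread than that of miR-467b. All 4 miRNAs were measured on the second card and share its reference, and these correlations are given as a description.

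A second assay named miR-467b, on the first card, had no Ct in any of the 8 mice, including the 7 in which the second-card assay was below Ct 35. No sequence of either assay was at hand, so the same name does not show that they measure the same strand. Of 13 names, species prefix included, with an assay on both cards, 9 were detected by neither assay, 4 by 1 assay only and 0 by both. This count leaves out miRNAs whose assays on the 2 cards carry different species prefixes. Among the markers, such assays of miR-223 were both detected in all 8 mice, and those of miR-143 both in sham mouse 4 only. Those of miR-200b and miR-200c were detected in no mouse.

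miR-467a, which shares its name with 10 genes inside Sfmbt2, was detected in 1 mouse only. Its first-card assay gave a Ct of 31.7 in sham mouse 3, a delta Ct of 12.7, and no Ct in the other 7 mice. Ct 35 lay beyond that delta Ct in 6 of the 8 mice, sham mouse 3 included. The second-card assay of that name had no Ct in any mouse, sham mouse 3 included. Sham mouse 3 also had the lowest miR-194 Ct, and its part in the miR-467a value was not tested. With a value in 1 mouse, miR-467a was not tested for its level.

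Detection was compared by Fisher's exact test per assay, two-sided, over the 133 miRNA assays detected in 1 to 7 mice. For miR-467b, 4 of 4 sham mice were positive and 3 of 4 after ischemia/reperfusion. For miR-467a the counts were 1 of 4 and 0 of 4, and Fisher's exact p was 1 for both. When only 1 mouse differs from the rest, this p is the same whichever mouse it is, so the test cannot compare the groups for these members. Over the 133 assays 0 passed after adjustment (0.0%), and 0 had an unadjusted p under 0.05, where only 4 of 4 against 0 of 4 mice could reach it. More sham than ischemia/reperfusion mice were positive for 107 of the 133 assays, as they were for both of these members.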

How the data were processed

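RNA was extracted with the mirVana kit and quantified by real-time PCR with a FAM label, per the labels' protocols. The authors deposited Ct values, which are treated here as a score on a falling log2 scale, delta Ct values, a log2 scale, and a fold ratio per assay. Per the file headers, the fold ratio is 2 to the power of mean control minus mean experimental delta Ct. In the deposited tables, Ct minus delta Ct was 1 value per mouse and card within 7.11e-15 cycles. The reference RNA is not given in the sources used here. Wells with a delta Ct but no Ct were taken as missing.

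Repeated rows of an assay were averaged. Groups, taken from the sample titles, were compared with limma 3.58.1 in R 4.3.3 on minus delta Ct over all 72 miRNAs detected (Ct below 35) in at least 3 mice of each group, with Benjamini-Hochberg adjustment over all of them. The fit was tested on simulated data in which the miRNAs were drawn independently. A reference shared within a mouse was not part of that simulation, so its effect was not tested. Each mouse was taken as 1 replicate, and precision rests on the spread between 4 mice per group.

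The members, lists and tests were chosen with earlier results of these data known. All members are named, with values for those detected. The markers named were miRNAs of endothelium, smooth muscle, leukocytes, erythroid cells and kidney epithelium. The 3 miRNAs most like miR-467b were taken by Pearson's r. The reference, the detection limit and filter, the handling of wells without detection, the moderation and the test were varied, mouse number was added as a block, and each mouse was left out in turn, and sham mice 3 and 4 together.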

Additional observations from a re-analysis of the deposited data

Results flagged for a closer look

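A mouse was flagged where the gap to its nearest neighbour took up most of the range of its group. For continuous values chance flags about 1 in 20 groups of this size, but the counts here are of 0 to 2 assays. Where 1 count differs from equal others, the gap is always the whole range, so that rate does not hold for these flags. In sham mouse 3, 2 members were detected against 1 in each of the other sham mice, through the single miR-467a value. In ischemia/reperfusion mouse 2, 0 members were detected against 1 in each of the other 3 mice, because miR-467b was at Ct 35.9. That mouse had the highest reference Ct of its group on the second card, 22.6, and whether this bears on the count was not tested.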

How the results depend on the processing

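The difference of miR-467b stayed short of the threshold under all alternatives that gave it a value, with limma adjusted p between 0.314 and 0.930, and was positive in 25 of 27. The exceptions, both chosen after seeing the data, were Ct below 38 without normalization, at -0.40, and the fit without sham mice 3 and 4, at -0.67, and the cause was not tested. The 27 are not separate checks of the sign. Several, such as the changed moderation, the exact test and the fit without ischemia/reperfusion mouse 2, leave the difference at 1.03 by design. Fits without a sham mouse entered under both filters with the same values. Leaving out each mouse gave 0.43 to 1.75. Without ischemia/reperfusion mouse 1, 3 or 4 it did not meet the filter of 3 mice, and with 2 mice per group required, chosen after seeing the data, the range was also 0.43 to 1.75. With Ct below 32 miR-467b was not tested, and members detected numbered 1 in any mouse, 1 in sham and 0 in ischemia/reperfusion mice. Without sham mouse 3 the counts in any mouse and in sham were 1, and 2 otherwise. Calls among all tested miRNAs were 1 with Ct below 38, 1 with values not detected at Ct 35 and 1 with undetermined wells at Ct 40, and 0 to 1 over the fits leaving out a mouse, with 1 without sham mouse 2. None of these calls was a member. With mouse number as a replicate block the difference was 1.75 ± 1.15 (SE), since that fit makes no use of sham mouse 2, whose partner is missing. The block gave 0 calls, as without it. Same-numbered mice did not deviate together (correlations of -0.38, -0.15, 0.02 and -0.25), so the numbers were not taken as pairs. Late Ct values and 3 or 4 values per group limit all of these results.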

Other observations

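Assays of these families outside the rule gave no signal either. The passenger-strand assays miR-297a# and miR-467e# and the rat-named assays rno-miR-466b and rno-miR-466c had no Ct in any of the 8 mice. Another large rodent cluster of repeated copies, the X-linked miRNAs near Fmr1 known from testis, had 23 assays without #, of which 1 was detected in at least 1 mouse. That was miR-463, at Ct 33.2 in ischemia/reperfusion mouse 3. It had a Ct between 35.1 and 37.4 in 6 of the other 7 mice and none in ischemia/reperfusion mouse 1. Of the 4 passenger-strand (#) assays of that cluster, 1 was detected, and it was detected in all 8 mice. This was miR-463#, named after its values were seen, with a Ct from 26.9 (sham mouse 3) to 28.7 (ischemia/reperfusion mouse 2). The other 3 had no Ct in any mouse.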
